A study of Homo sapiens with 6 samples.

Results

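Rab GTPases are the largest family of small GTPases and direct traffic between the membranes of a cell. The Rab genes of a cell line given a short hairpin RNA (shRNA) against SHCBP1 are described here. Members were all genes whose symbol in the array annotation is RAB, a number and at most 1 letter from A to D, taken from probe sets that name no other gene. This gave 57 genes, measured by 161 probe sets, of 18132 genes and 44988 probe sets tested. All 57 symbols matched the RefSeq gene table by Entrez number. RAB1B, RAB4B, RAB6C, RAB24 and RAB43 are named in the annotation only beside another symbol and are not members.

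Expression was measured on 6 Affymetrix arrays. Both groups are labelled TPC-1, a cell line established from a papillary thyroid carcinoma: 3 arrays hold cells that received lentivirus with a control shRNA and 3 hold cells that received lentivirus with an SHCBP1 shRNA. The extraction text names DLD1 cells, an established colorectal carcinoma line. The labels name 1 SHCBP1 hairpin and no rescue, and what comes from lower SHCBP1 and what from the hairpin itself cannot be told apart. The labels do not say that the arrays of a group came from separate cultures, so p-values measure the spread between these arrays, which may be technical, and 3 arrays per group limit the precision.

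A Rab works as a switch. A guanine nucleotide exchange factor (GEF) loads it with GTP on a membrane, where it recruits effectors such as tethers, motor adaptors and lipid phosphatases, and a GTPase-activating protein (GAP) returns it to the GDP form. Rabs hold to membranes through geranylgeranyl groups and are drawn back into the cytosol by GDP dissociation inhibitors (GDI). Each membrane carries its own Rabs, so RAB5 proteins mark early endosomes, RAB7 proteins late endosomes and RAB1 and RAB2 proteins the route from the endoplasmic reticulum to the Golgi. In epithelial tumour cells Rabs are known for the traffic of integrins and growth factor receptors.

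Differences below are SHCBP1 shRNA minus control shRNA on the log2 scale, with the moderated standard error (SE) of limma from 3 arrays per group. A gene passed the test when its limma p-value, Benjamini-Hochberg adjusted over all 18132 genes, was under 0.05. For every probe set the deposited values have a median of 0, so a value compares arrays and is no expression level. The targeted gene SHCBP1 stood at centred log2 values of 0.72, 0.76 and 0.71 with the control shRNA and at -0.95, -0.76 and -0.72 with its own, a difference of -1.54 ± 0.06 (SE).

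Several facts of the whole series bear on the direction of all values. The poly-A spike-in transcripts, which are added to the RNA in the standard labelling protocol, stood a mean of 0.43 log2 higher under SHCBP1 shRNA over 24 probe sets. Scaling to them subtracts 0.43 from every difference and moves the median of all genes from 0.02 to -0.41. Every change below is thus a change against the bulk of genes measured. Of marker lists chosen with earlier results of these data known, 1 of 7 thyroid genes passed the limma test (FOXE1, 0.24 higher). In these lists 2 of 8 colorectal genes passed the test (KRT20 at -1.09 and CDX2 at 0.12). No fibroblast gene of 7 passed it, and 1 had an unadjusted p under 0.05. Of all genes tested, 41% passed the limma test. Centred values cannot show which of these lineages the cells have.

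Of the 57 Rab genes, 33 passed the limma test, 13 lower and 20 higher in the SHCBP1 shRNA arrays. With scaling to the spike-in controls, 17 of the 20 rises turn below 0, the other 3 do not pass, and all 13 falls keep their direction and pass. The 33 genes are 57.9% of the family, against 41% of all genes tested. The 20 higher genes are 35.1%, against 22% of all genes, and the 13 lower genes are 22.8%, against 19%. The groups did not overlap in 36 Rab genes (63.2%), against 50% of all genes. Centred values allow no filter on low expression, so all genes, here and below, include any that the cells do not express. Whether the Rab genes match all genes in expression level was not tested. The median difference was 0.04 for the Rab genes and 0.02 for all genes.

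The falls reached further than the rises. RAB3B, RAB21, RAB28, RAB20 and RAB26 fell at least 2-fold, which is 8.77% of the family, against 0.904% of all genes. RAB5A rose furthest, 1.41-fold, and so no Rab gene rose 2-fold. The median size was 0.49 log2 among Rab genes that fell and 0.29 among those that rose. For all genes past the threshold it was 0.31 and 0.27. The 0.49 is the value of RAB40B alone, whose call was lost when control array 2 or control array 3 was left out.

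**Figure D1:**
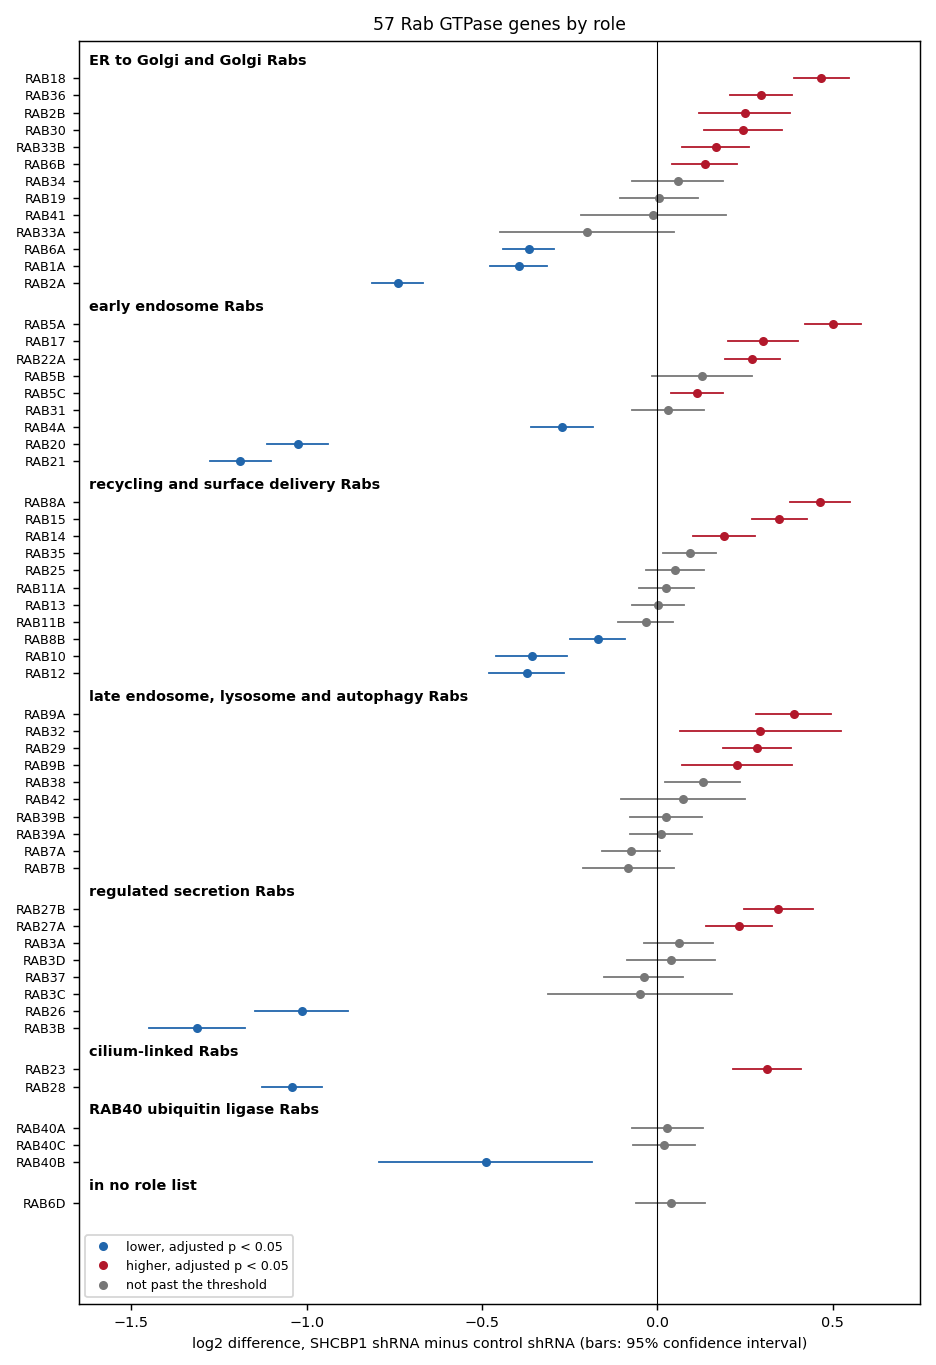
Difference between the groups (log2, SHCBP1 shRNA minus control shRNA, x axis) for 57 Rab genes (y axis) grouped by role, with 95% confidence intervals from limma; blue and red mark the 13 genes lower and the 20 genes higher at an adjusted p under 0.05, and grey the rest. The 5 genes at or below -1 are spread over 3 of the role groups, and scaling to the spike-in controls would move every point left by 0.43, which puts 17 of the 20 red points below 0.

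**Figure D2:**
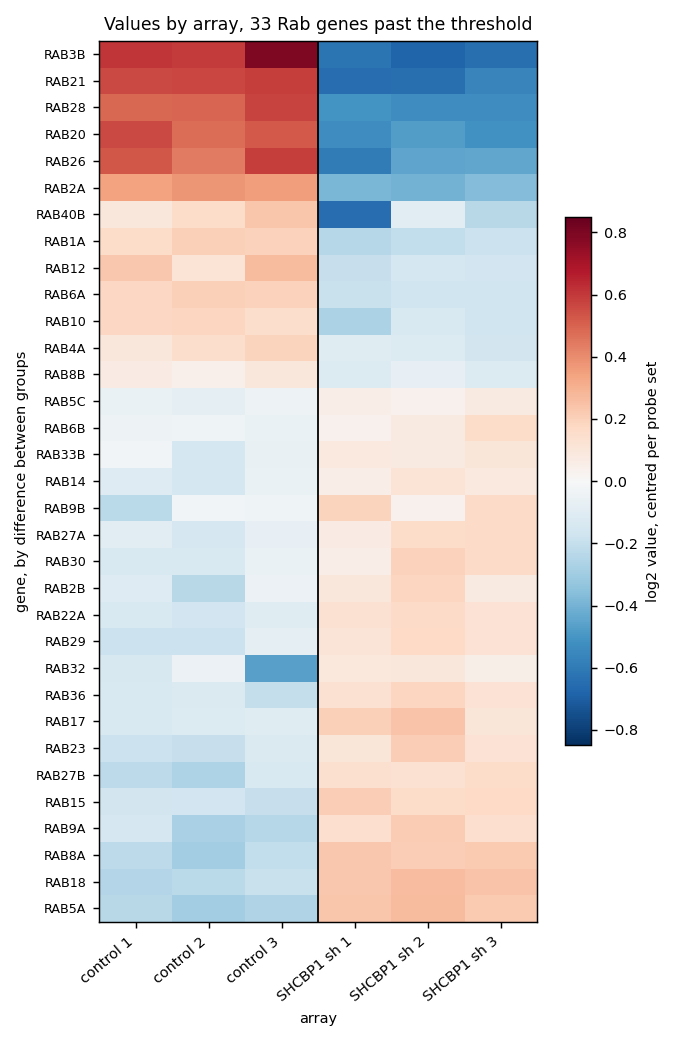
Centred log2 values (colour) of the 33 Rab genes past the threshold (rows, by difference) in the 3 control and 3 SHCBP1 shRNA arrays (columns). In every row the groups do not overlap; RAB40B stands lower in SHCBP1 shRNA array 1 (-0.65) and RAB32 in control array 3 (-0.46) than in the other arrays of their group, and since each probe set is centred on 0, colours show no level.

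Promoter windows are shown for 3 Rabs of early endosomes that share an E-box word, and for RAB3B, the Rab gene with the largest fall. RefSeq (GRCh38.p14) gave the 250 bases before the gene start for 45 of the 57 members. The word GTCACGTG, the core of the element bound by the lysosomal regulator TFEB, was searched on both strands, and it contains the E-box CACGTG. It lay in 3 of the 45 windows (6.67%), those of RAB21, RAB5A and RAB31, and in 2.21% of 27305 promoter windows of the same length. CACGTG alone lay in 4 of the 45 (8.89%) and in 6.33% of all, the added gene being RAB4A. RAB21 fell, RAB5A rose (not past the threshold with spike-in scaling) and RAB31 did not pass the test. Of 6 words searched, the GC box GGGCGG lay in 77.8% of the member windows and 41.6% of all, the CCAAT box in 24.4% and 32.9%, and the CRE word TGACGTCA in 2.22% and 1.74%. The 27305 windows were not limited to the 18132 genes tested on the array, so these shares compare unlike sets of genes. In the windows below, capitals mark the word with the overlapping copy on the other strand where there is one. They lie at chr12:71754613-71754862 (plus strand) for RAB21, chr3:19946847-19947096 (plus strand) for RAB5A and chr18:9708051-9708300 (plus strand) for RAB31.
RAB21: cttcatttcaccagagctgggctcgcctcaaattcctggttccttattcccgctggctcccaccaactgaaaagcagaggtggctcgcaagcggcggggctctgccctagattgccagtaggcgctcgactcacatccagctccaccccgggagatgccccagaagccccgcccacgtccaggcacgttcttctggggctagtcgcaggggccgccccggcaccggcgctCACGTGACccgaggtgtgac
RAB5A: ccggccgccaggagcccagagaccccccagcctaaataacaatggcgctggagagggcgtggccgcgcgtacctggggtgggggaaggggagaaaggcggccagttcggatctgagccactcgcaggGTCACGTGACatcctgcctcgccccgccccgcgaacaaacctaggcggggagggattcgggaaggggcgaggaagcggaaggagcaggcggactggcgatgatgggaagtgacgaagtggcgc
RAB31: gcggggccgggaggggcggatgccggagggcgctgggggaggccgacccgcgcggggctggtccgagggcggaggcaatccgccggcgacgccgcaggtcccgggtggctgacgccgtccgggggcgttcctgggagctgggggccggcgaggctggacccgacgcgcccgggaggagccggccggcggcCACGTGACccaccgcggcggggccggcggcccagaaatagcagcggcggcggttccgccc

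The RAB3B window, at chr1:51990701-51990950 (minus strand), holds the AP-1 word TGACTCA on its reverse strand, in capitals as TGAGTCA. Among the 45 member windows this word lay in 3 (6.67%), those of RAB3B, RAB5B and RAB13, and in 4.28% of all windows. RAB5B and RAB13 did not pass the test. These matches describe letters in a window and show no binding.
RAB3B: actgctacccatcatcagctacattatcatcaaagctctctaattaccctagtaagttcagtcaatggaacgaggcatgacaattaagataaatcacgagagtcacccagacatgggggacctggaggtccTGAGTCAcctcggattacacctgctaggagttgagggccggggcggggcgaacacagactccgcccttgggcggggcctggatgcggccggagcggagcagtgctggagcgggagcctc

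The early endosome Rabs held both the largest rise of the family and its second largest fall. Of 9 measured, 4 rose and 3 fell (22% and 19% of all genes, the shares to set beside every count by role), and with spike-in scaling only RAB5A of the 4 rises stays above 0. RAB21, an endosomal Rab known to bind integrin tails, had centred log2 values of 0.56, 0.57 and 0.59 under control and of -0.65, -0.64 and -0.56 under SHCBP1 shRNA. It fell 2.28-fold (-1.19 ± 0.04, SE, adjusted p = 8.85e-07 in limma). RAB20, a Rab of endosome and phagosome maturation, gave 0.56, 0.48 and 0.52 against -0.53, -0.48 and -0.51, a 2.04-fold fall (-1.03 ± 0.04, SE). Both genes separated the groups by far more than the spread of the arrays within a group. RAB20 rests on 1 probe set, while the 2 probe sets of RAB21 stood at -1.34 and -1.04. RAB4A, which drives fast recycling to the surface, fell by 0.27 ± 0.04 (SE), but on plain _at probe sets stood at -0.12 and did not pass (adjusted p = 0.388 in limma).

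RAB5A, which organises the fusion of early endosomes, had values of -0.23, -0.29 and -0.26 in controls and of 0.23, 0.27 and 0.22 under SHCBP1 shRNA. It rose by 0.50 ± 0.03 (SE, adjusted p = 2.09e-05 in limma), and its 4 probe sets gave 0.46 to 0.54. With spike-in scaling its difference is 0.07 and does not pass (adjusted p = 0.236 in limma). Its paralogs moved less: RAB5C rose by 0.11 ± 0.03 (SE), and RAB5B, at 0.13 ± 0.06 (SE), did not pass. The RAB5C call was lost without control array 1 or 2 or SHCBP1 shRNA array 1 or 3 (adjusted p from 0.0620 to 0.0787 in limma). It was also lost with arrays centred on their median (adjusted p = 0.0533) and without _s_at and _x_at probe sets (adjusted p = 0.152). RAB22A, a Rab of endosomal sorting, rose by 0.27 ± 0.03 (SE) and RAB17, a Rab of epithelial cells, by 0.30 ± 0.04 (SE). RAB17 rests on 1 probe set, of the _s_at type. RAB31, which takes part in traffic between the Golgi and endosomes, stayed at 0.03 (95% confidence interval -0.07 to 0.13).

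Among the Rabs of the Golgi and of the route to it, 6 of 13 rose and 3 fell, and with spike-in scaling only RAB18 of the rises stays above 0. RAB2A, which acts between the Golgi and the endoplasmic reticulum, gave 0.34, 0.37 and 0.36 in the control arrays against -0.39, -0.40 and -0.37, a difference of -0.74 ± 0.03 (SE, adjusted p = 2.44e-06 in limma). Of its 4 probe sets, 3 stood between -1.02 and -0.96 and 1 at -0.01. RAB1A, needed for transport from the endoplasmic reticulum to the Golgi, fell by 0.40 ± 0.03 (SE). RAB6A, a Rab of retrograde transport at the Golgi, fell by 0.37 ± 0.03 (SE), and its 8 probe sets lay between -0.55 and -0.10. The groups did not overlap for any of these 3 genes.

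RAB18, a Rab of the endoplasmic reticulum and of lipid droplets, rose by 0.47 ± 0.03 (SE, adjusted p = 2.47e-05 in limma). Its values were -0.25, -0.23 and -0.19 with the control shRNA and 0.23, 0.26 and 0.25 under SHCBP1 shRNA, but its 10 probe sets ran from 0.06 to 0.87. On plain _at probe sets alone, which leave 1 for this gene, it stood at 0.11 and did not pass (adjusted p = 0.261 in limma). The Golgi Rabs RAB36, RAB30 and RAB33B rose by 0.30 ± 0.04, 0.24 ± 0.05 and 0.17 ± 0.04 (SE). The RAB33B call was lost without _s_at and _x_at probe sets (adjusted p = 0.136 in limma) and on plain _at probe sets (adjusted p = 0.214). The probe sets of RAB36 ranged from -0.01 to 0.68, and without _s_at and _x_at probe sets it stood at 0.45. RAB33A gave 3 scattered control values (-0.08, 0.38 and 0.28) and did not pass. RAB19, RAB34 and RAB41 did not pass either (differences from -0.01 to 0.06), nor did RAB6D, a close copy of RAB6 genes that was in no role list (0.04 ± 0.04, SE).

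Of 11 Rabs of recycling and delivery to the surface, 3 rose and 3 fell, shares near the 22% and 19% of all genes (RAB8A alone of the 3 rises stays above 0 with spike-in scaling). RAB8A, which drives transport to the plasma membrane and cilium growth, had values of -0.23, -0.30 and -0.21 under control and of 0.23, 0.21 and 0.22 under SHCBP1 shRNA. It rose by 0.46 ± 0.04 (SE, adjusted p = 4.01e-05 in limma), measured by 1 probe set. That probe set is of the _s_at type, so RAB8A was not measured without _s_at and _x_at probe sets. RAB15, an inhibitor of early endocytic steps, rose by 0.35 ± 0.03 (SE), also by 1 probe set, and RAB14, which links the Golgi with endosomes, by 0.19 ± 0.04 (SE). RAB12, known for the turnover of the transferrin receptor, fell by 0.37 ± 0.05 (SE), and on plain _at probe sets stood at -0.21. RAB10, known for the delivery of glucose transporters, fell by 0.36 ± 0.04 (SE) as a gene, but its 2 probe sets stood at -0.78 and 0.07. Without its _s_at probe set, a name Affymetrix gives to probes shared between transcripts, RAB10 stood at 0.07 and did not pass (adjusted p = 0.327 in limma).

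RAB11A, the main Rab of recycling endosomes, was the only member with some probe sets that rose and others that fell past the threshold. Its mean did not move (0.03 ± 0.03, SE), while 2 probe sets stood at -0.24 and -0.17 and 2 at 0.21 and 0.30. The annotation used here does not tell which transcripts these probe sets read. RAB11B (-0.03), the tight junction Rab RAB13 (0.00) and the epithelial RAB25 (0.05) did not pass. Neither did RAB35 (0.09, adjusted p = 0.0576 in limma), although its groups did not overlap.

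**Figure D3:**
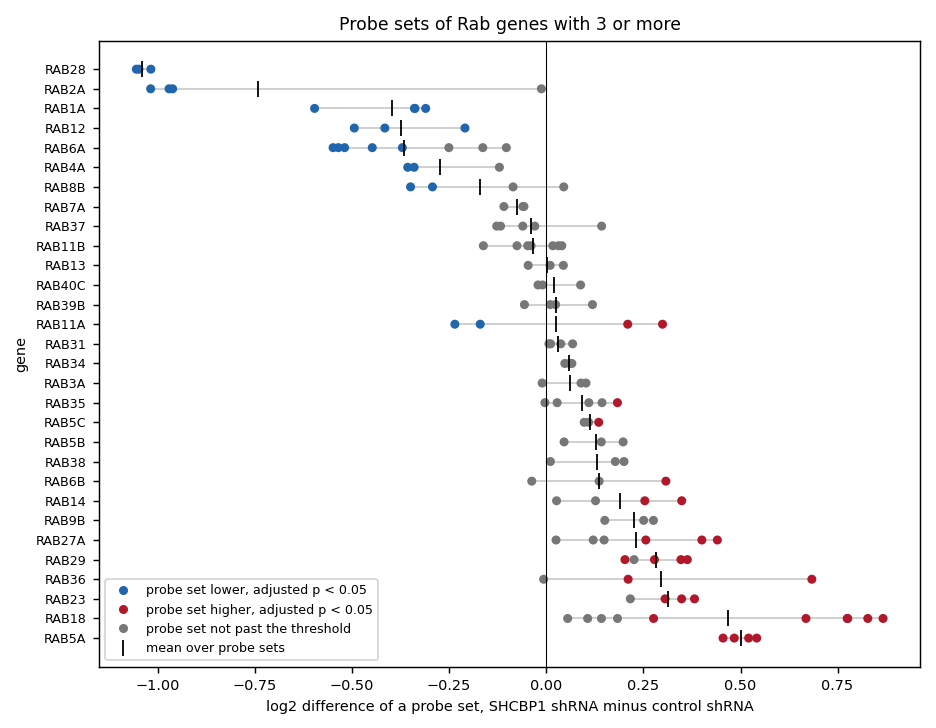
Difference of each probe set (points, log2, SHCBP1 shRNA minus control shRNA, x axis) for the Rab genes with 3 or more (y axis), coloured by its own limma call over all probe sets, with a bar at the mean used for the gene. RAB28 and RAB5A have tight probe sets, RAB2A has 1 of 4 near 0, RAB18 spreads from 0.06 to 0.87 and RAB11A has 2 on each side of 0; scaling to the spike-in controls would move every point left by 0.43.

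In the late endosome, lysosome and autophagy group, 4 of 10 genes rose and none passed as lower by limma or had a negative difference at an unadjusted p under 0.05. All 4 rises turn below 0 with spike-in scaling. RAB9A, which returns mannose 6-phosphate receptors from late endosomes to the Golgi, rose by 0.39 ± 0.05 (SE, adjusted p = 0.000311 in limma). Its values were -0.14, -0.28 and -0.24 in controls and 0.14, 0.22 and 0.14 under SHCBP1 shRNA, measured by 1 probe set. RAB29, a partner of the kinase LRRK2, rose by 0.28 ± 0.04 (SE). The paralog RAB9B rose by 0.23 ± 0.07 (SE), and its call was lost without control array 1 or SHCBP1 shRNA array 1 or 3 (adjusted p from 0.0656 to 0.0910 in limma). The 3 probe sets of RAB9B did not pass on their own. Its call was also lost with the median of the probe sets (adjusted p = 0.0908) and on plain _at probe sets (adjusted p = 0.0594). RAB32, a Rab of melanosomes and other lysosome-related organelles, rose by 0.29 ± 0.10 (SE) and rests on 1 probe set and on a wide control group (-0.13, -0.05 and -0.46). Its call was lost under 8 of the settings that kept its direction, 4 of which left out an array (control array 1 or any SHCBP1 shRNA array). Without control array 3 RAB32 passed at a smaller difference, 0.17. RAB7A, the central Rab of late endosomes, stayed at -0.08 (95% confidence interval -0.16 to 0.01), and RAB7B at -0.08 (-0.21 to 0.05). RAB38, RAB39A, RAB39B and RAB42 did not pass (differences from 0.01 to 0.13).

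The Rabs of regulated secretion gave 2 falls of at least 2-fold, 2 rises that turn below 0 with spike-in scaling, and 4 genes that did not pass. RAB3B, a Rab of hormone and transmitter release, had values of 0.61, 0.59 and 0.80 with the control shRNA and of -0.62, -0.68 and -0.64 under SHCBP1 shRNA. It fell 2.49-fold (-1.31 ± 0.06, SE, adjusted p = 3.06e-06 in limma), and ranked 59 from the lowest of the 18132 differences. RAB26, a Rab of secretory granules, fell 2.02-fold (-1.01 ± 0.06, SE), from 0.53, 0.44 and 0.59 to -0.59, -0.45 and -0.44, measured by 1 probe set. Both separated the groups without overlap. The other RAB3 genes did not pass: RAB3A stood at 0.06 ± 0.04, RAB3C at -0.05 ± 0.11 and RAB3D at 0.04 ± 0.05 (SE). RAB27B and RAB27A, which dock secretory vesicles and exosome precursors, rose by 0.35 ± 0.04 and 0.23 ± 0.04 (SE). The 6 probe sets of RAB27A ran from 0.03 to 0.44, and RAB27B has 1. RAB37, a Rab of mast cell and cytokine granules, stood at -0.04 ± 0.05 (SE) and did not pass.

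Of the Rabs linked to cilia, RAB28, which is carried along cilia and needed in photoreceptors, fell 2.06-fold (-1.04 ± 0.04, SE, adjusted p = 1.34e-06 in limma). Its values were 0.49, 0.49 and 0.57 under control and -0.51, -0.53 and -0.53 under SHCBP1 shRNA, and its 3 probe sets stood between -1.06 and -1.02. RAB23, a negative regulator of hedgehog signalling, rose by 0.31 ± 0.04 (SE), but stands at -0.12 with spike-in scaling. Of the RAB40 genes, whose products join Cullin-5 ubiquitin ligases, RAB40B fell by 0.49 ± 0.13 (SE, adjusted p = 0.0184 in limma). Its SHCBP1 shRNA values were far apart (-0.65, -0.09 and -0.24, against 0.09, 0.16 and 0.24), and its call was lost without control array 2 (adjusted p = 0.0556 in limma) or control array 3 (adjusted p = 0.0645). RAB40B rests on 1 probe set. RAB40A and RAB40C did not pass (0.03 and 0.02).

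In 3 pairs of paralogs 1 gene rose and the other fell. RAB2A (-0.74) fell while RAB2B rose by 0.25 ± 0.06 (SE), with values of -0.11, -0.23 and -0.05 in controls and of 0.10, 0.18 and 0.08 under SHCBP1 shRNA. RAB8A rose by 0.46 while RAB8B fell by 0.17 ± 0.03 (SE), and RAB6A (-0.37) fell while RAB6B rose by 0.14 ± 0.04 (SE). RAB8A rests on 1 _s_at probe set and has no value without such probe sets. The RAB2B call was lost without _s_at and _x_at probe sets (0.22, adjusted p = 0.102 in limma). With spike-in scaling RAB2B (-0.19) and RAB6B (-0.30) fall too, whereas RAB8A stays at 0.03 and RAB8B at -0.60. On plain _at probe sets RAB8B stood at -0.35, but its 4 probe sets ranged from -0.35 to 0.04 and 2 passed. RAB6B stood at 0.22 without _s_at and _x_at probe sets, and did not pass with arrays centred on their median (adjusted p = 0.0541 in limma), with the median of its 3 probe sets (adjusted p = 0.311) or without any of 5 arrays (all but SHCBP1 shRNA array 1). RAB9A and RAB9B rose together, as did RAB27A and RAB27B. Differences between paralogs were not tested directly.

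Genes that act on Rabs or with them were taken from 4 lists, chosen with earlier results of these data known. Rises among them under 0.43 turn below 0 with spike-in scaling. Effectors fell more often than they rose: of 51 tested, 24 fell and 9 rose, against 19% and 22% of all genes, with a median difference of -0.10. APPL1, an early endosome adaptor that binds RAB5 and RAB21, had values of 0.76, 0.80 and 0.85 with the control shRNA and of -0.79, -0.81 and -0.79 under SHCBP1 shRNA. It fell 3.02-fold (-1.60 ± 0.04, SE, adjusted p = 3.14e-07 in limma), though its 8 probe sets ran from -2.53 to -0.38. The lipid phosphatase gene OCRL, whose product binds many Rabs, fell by 0.84 ± 0.07 (SE), and GOLGA5, a golgin, fell by 0.82 ± 0.05 (SE). BICD2, which joins RAB6 vesicles to dynein, fell by 0.77 ± 0.04 (SE), the RAB27 effector gene EXPH5 fell by 0.65 ± 0.05 and the RAB11 effector gene RAB11FIP1 fell by 0.58 ± 0.04. The probe sets of RAB11FIP1 ranged from -1.19 to 0.06. EEA1, the early endosome tether of RAB5, was chosen after its values were seen and fell by 0.44 ± 0.04 (SE).

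Among GAPs, 14 of 33 fell and 6 rose, against 19% and 22% of all genes, with a median of -0.11. TBC1D22A fell by 0.60 ± 0.07 (SE) and EVI5, a GAP of RAB11, fell by 0.46 ± 0.07. USP6NL, a GAP of RAB5, fell by 0.39 ± 0.04 (SE), TBC1D16, which acts on RAB4A, fell by 0.34 ± 0.07, and TBC1D10A, which acts on RAB27A and RAB35, fell by 0.32 ± 0.07. TBC1D12 rose by 0.44 ± 0.05 (SE). The probe sets of TBC1D22A (-0.89 to -0.06) and USP6NL (-0.61 to 0.08) were uneven.

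Of 38 GEFs, 10 rose and 8 fell, shares near the 22% and 19% of all genes, and the median was 0.03. TRAPPC1, a subunit of the TRAPP complexes that activate RAB1 and RAB11, had values of -0.29, -0.49 and -0.29 under control and of 0.41, 0.29 and 0.38 under SHCBP1 shRNA. It rose by 0.72 ± 0.06 (SE), measured by 1 probe set. The TRAPP subunit genes TRAPPC2L and TRAPPC4 rose by 0.35 ± 0.04 and 0.30 ± 0.04 (SE). The 2 probe sets of TRAPPC2L stood at 0.04 and 0.66. Of the other TRAPP genes listed, TRAPPC10 rose by 0.21 ± 0.06 (SE) and TRAPPC3 fell by 0.17 ± 0.03. TRAPPC9, at 0.01, did not pass. DENND1B, a GEF of RAB35, rose by 0.38 ± 0.04 (SE), and RIC1, part of the GEF of RAB6A, by 0.28 ± 0.04. The 5 probe sets of RIC1 ranged from -0.01 to 0.55. DENND4C, a GEF of RAB10, fell by 0.32 ± 0.04 (SE). Of 7 genes of prenylation, escort and GDI, 2 rose and 3 fell (22% and 19% of all genes). The Rab chaperone gene RABIF rose by 0.33 ± 0.04 (SE), but its 2 probe sets stood at 0.04 and 0.63. RABAC1, which frees Rabs from GDI, rose by 0.17 ± 0.04. RABGGTA, a subunit of the geranylgeranyl transferase, fell by 0.17 ± 0.04 (SE), the methyltransferase gene ICMT fell by 0.16 ± 0.03 and GDI2 fell by 0.10 ± 0.03. The 2 probe sets of ICMT stood at -0.31 and -0.01.

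**Figure D4:**
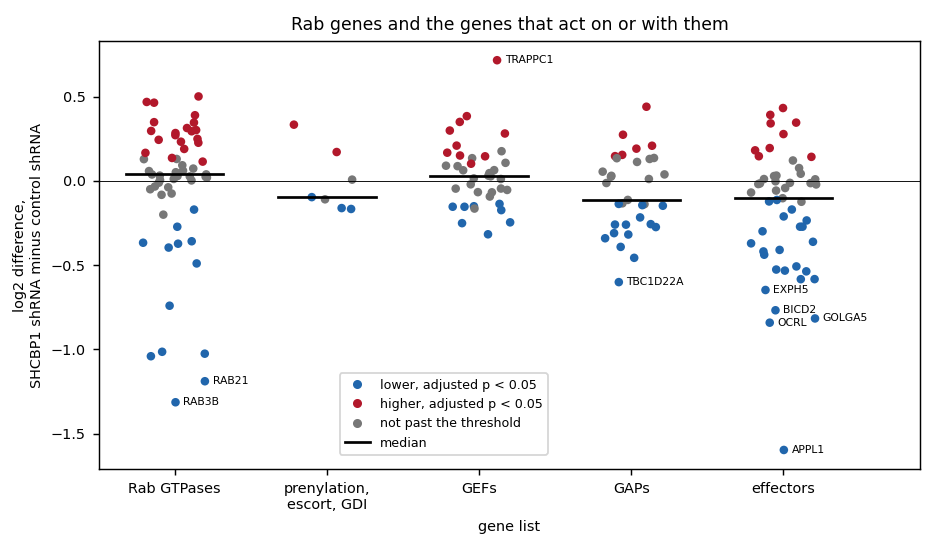
Difference between the groups (log2, SHCBP1 shRNA minus control shRNA, y axis) of each gene (points) for the Rab genes and 4 lists of partners (x axis), coloured by limma call, with a bar at the median of each list. The effectors and GAPs have medians of -0.10 and -0.11, the GEFs 0.03 and the Rab genes 0.04; scaling to the spike-in controls would move every point down by 0.43.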

How the data were processed

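Values came from 6 Affymetrix arrays, 3 per group, with groups and replicate numbers from the sample titles. The authors deposited 1 log2 value per probe set and array made with RMA, per the submitters' processing notes; the log base was taken as that of RMA. The median of each probe set over the 6 arrays is 0, so values were centred before deposit, a step not given in the sources used here. RMA makes arrays alike, which removes a shift shared by all genes.

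Probe sets with exactly 1 symbol in the platform annotation were averaged per gene, with no filter on low values, which centring makes impossible. The test was that of limma 3.58.1 (R 4.3.3; lmFit, then eBayes) without pairs, and p-values of all 18132 genes were adjusted together by Benjamini-Hochberg. The test was checked on simulated data with independent noise, which cannot show the effect of noise shared between arrays. The SD over genes of the difference of a pair of arrays was 0.105 to 0.111 within a group and 0.302 to 0.309 across groups, so no array was a copy. Replicate numbers were not taken as pairs, since the labels name no shared batch or day. Same-numbered arrays did not deviate together (correlations 0.02, -0.05 and 0.07).

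The members, lists and tests were chosen with earlier results of these data known. Named are SHCBP1, every member past the threshold and every member that moved by at least 0.25 log2 (all of which passed), other members by value or range, and up to 6 genes per partner list, the largest changes past the threshold. Members named for their probe sets or promoters, EEA1, TRAPPC3, TRAPPC9, TRAPPC10 and the promoter words were chosen after values were seen. Promoters come from RefSeq, GRCh38.p14. Alternatives covered normalization, spike-in scaling, array weights, robust moderation, the replicate block, leaving out each array and other uses of probe sets.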

Additional observations from a re-analysis of the deposited data

How the results depend on the processing

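Without spike-in scaling and across the other 14 alternatives, 23 of the 33 calls among Rab genes kept their direction and passed wherever they were measured, and 10 were lost in at least 1; of these only RAB10 turned, to 0.066 both without _s_at and _x_at probe sets and on plain _at probe sets. Leaving out each array gave 12 to 14 lower and 16 to 19 higher genes, and a median Rab difference from 0.027 to 0.062, the highest without control replicate 3 (0.0618, against 0.0376 with all arrays). With the replicate block 31 Rab genes passed (18 higher, 13 lower), RAB6B (adjusted p = 0.0533 in limma) and RAB9B (adjusted p = 0.0607) being lost; the block changed no other call of a Rab gene. RAB8A and RAB17, each with only an _s_at probe set, had no value in the settings that left such probe sets out. Plain _at probe sets measured 31 of the 57 genes and gave 12 calls (8 lower, 4 higher). They gave 3 calls among 4 tested genes of prenylation, escort and GDI. For GEFs, GAPs and effectors they gave 3 of 10, 3 of 11 and 5 of 20. The share of all genes called on plain _at probe sets was not counted. The cause of the lower share of Rab calls and of their changed split was not tested.

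Spike-in scaling gave 48 of 57 Rab genes lower and 0 higher (0 higher at an unadjusted p under 0.05). The Rab median was -0.396, against -0.41 for all genes. Of 38 GEFs 35 passed the threshold, and of 33 GAPs 32 passed. These counts cannot be read as a trait of Rab genes, since the share of all genes was not counted under this scaling. Under it the differences of the rises became -0.32 for RAB5C, -0.30 for RAB6B, -0.27 for RAB33B, -0.24 for RAB14, -0.21 for RAB9B, -0.20 for RAB27A, -0.19 for RAB30, -0.19 for RAB2B, -0.16 for RAB22A, -0.15 for RAB29, -0.14 for RAB32, -0.14 for RAB36, -0.13 for RAB17, -0.12 for RAB23, -0.089 for RAB27B, -0.086 for RAB15 and -0.045 for RAB9A. The cause of the higher spike-in signal was not tested.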
